A study of Mus musculus with 2 samples.

Results

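The cytochrome P450 genes outside adrenal steroid synthesis were described in the adrenal glands of 2 newborn mice. The members were all genes with a symbol of the form Cyp, family number, subfamily letter and gene number and with at least 1 protein-coding transcript, less the steroid genes Cyp11a1, Cyp11b1, Cyp11b2, Cyp17a1 and Cyp21a1. Of 94 genes of that form, 89 qualified, out of 55536 annotated genes. Total RNA was measured by stranded sequencing of libraries depleted of ribosomal RNA. The single group held 2 female B6CASTF1/J mice, hybrids of a laboratory and a wild-derived strain, both 4 days old, with no treatment and no engineered allele named in the labels. Sequencing depth was even, with 31838341 expected counts in replicate 1 and 32931868 in replicate 2. As 1 group of 2 animals gives no comparison between conditions, levels are given for each animal and no p-value is given.

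P450 enzymes are haem proteins that insert an oxygen atom into lipids and foreign compounds. Those of the endoplasmic reticulum draw electrons from Por or cytochrome b5, and those of the mitochondrion from Fdxr through Fdx1. The adrenal cortex is best known for the steroid-making P450s, while most genes of families 1 to 4 are known for work in liver, kidney, lung or gut on drugs, fatty acids and retinoids.

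The labels disagree on whether replicate 2 is a second animal: its library text repeats the number of replicate 1, its tissue text has a number of its own, and a single donor record covers both. They are treated as separate animals, as the replicate numbers and tissue texts have it. Both libraries held the defining markers of the adrenal gland, with 6 of 6 cortex markers and 5 of 5 chromaffin cell markers detected. They also carried markers of neighbouring organs to different degrees. The summed level of 10 liver markers was 177.92 TPM in replicate 1 against 692.16 TPM in replicate 2, and that of 10 kidney markers was 108.22 TPM and 11.1 TPM. The summed level of 5 pancreas markers was 3610.56 TPM and 0.49 TPM, with Cela2a, Ins2 and Prss2 at 0 in replicate 2, and that of 5 skeletal muscle markers was 303.75 TPM and 1919.42 TPM. TPM is the usual relative level corrected for transcript length, so it can be set side by side between genes. In these bulk samples fewer cells of a type and less RNA per cell cannot be told apart.

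Of the 89 genes, 21 were detected, meaning 1 TPM or more in both animals, which is 23.6% of them beside 59.6% of all 21901 genes with a protein-coding transcript. Another 9 reached 1 TPM in 1 animal and 59 in neither. At the low end, 43 stayed under 20 counts in both animals and 9 had no count in either, among them Cyp2b19, Cyp2c65 and Cyp2w1. For a gene without a count, counting error alone leaves room for a share of at most 9.42e-06% of the library in replicate 1. In replicate 2 it leaves room for at most 9.11e-06%. Shared sequence and the choice of quantification are not covered by this bound. A second deposited quantification gave Cyp2b19 2.10 and 6.69 estimated counts in replicates 1 and 2. The summed level was 205.71 TPM in replicate 1 and 202.74 TPM in replicate 2. The 5 steroid P450s, by comparison, summed to 2925.58 TPM and 3105.3 TPM, 14.2-fold and 15.3-fold as much. A single gene, Cyp2f2, gave 27.9% and 28.6% of the members' sum, and the 8 highest genes gave 72.8% and 71.4% of it.

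**Figure D1:**
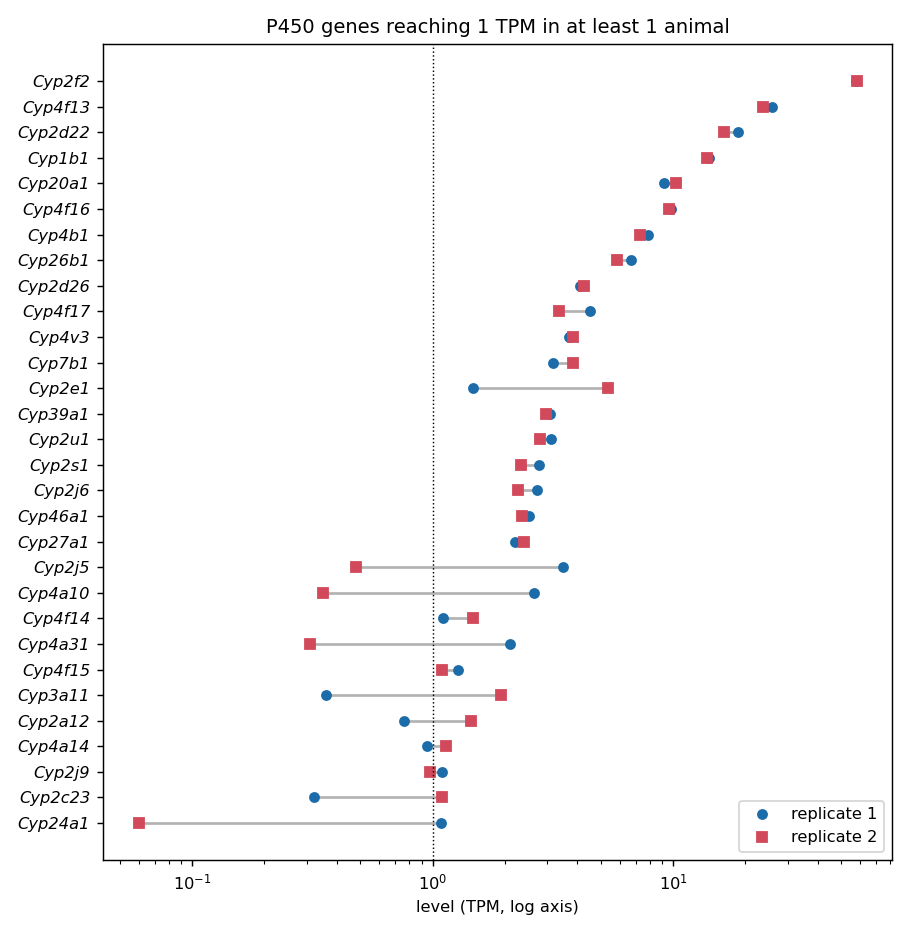
Level of each of the 30 P450 genes that reached 1 TPM in at least 1 animal (TPM, log axis), as a circle for replicate 1 and a square for replicate 2, with a dotted line at 1 TPM. The 8 genes at 5 TPM or more in both animals lie at nearly equal levels in both, while Cyp2e1, Cyp2j5, Cyp4a10, Cyp4a31, Cyp3a11, Cyp2c23 and Cyp24a1 have long connecting lines.

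In the order of levels, 9 of the 20 neighbouring pairs among the detected genes were apart, meaning that both animals of the higher gene exceeded both of the lower. Cyp2f2, Cyp4f13, Cyp2d22, Cyp1b1 and Cyp20a1 were each apart from the next in that order. The levels ordered here are whole-gene TPM, which includes transcripts of non-coding types. Cyp20a1 and Cyp4f16 could not be ordered, and neither could the run from Cyp2d26 through Cyp4f17, Cyp4v3, Cyp7b1, Cyp2e1 and Cyp39a1 to Cyp2u1, taken pair by pair.

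Promoter sequence is shown for 4 genes on which the results turn: the most abundant member, the family 1 gene, and the 2 genes that differed between the animals at a mean count of 100. Each sequence is the 250 bases before the RefSeq transcript start, in the gene's own 5′ to 3′ direction, from build GRCm38.p6. RefSeq promoter sequence was matched for 72 of the 89 genes. Capitals mark a short motif, which is a match of letters and not a measured binding site.
Cyp2f2, chr7:27119705-27119954, plus strand: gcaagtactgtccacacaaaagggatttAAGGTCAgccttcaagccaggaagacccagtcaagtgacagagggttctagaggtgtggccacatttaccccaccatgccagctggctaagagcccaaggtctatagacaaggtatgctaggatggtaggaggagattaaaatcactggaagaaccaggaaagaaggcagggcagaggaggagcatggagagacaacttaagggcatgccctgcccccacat
Cyp1b1, chr17:79715062-79715311, minus strand: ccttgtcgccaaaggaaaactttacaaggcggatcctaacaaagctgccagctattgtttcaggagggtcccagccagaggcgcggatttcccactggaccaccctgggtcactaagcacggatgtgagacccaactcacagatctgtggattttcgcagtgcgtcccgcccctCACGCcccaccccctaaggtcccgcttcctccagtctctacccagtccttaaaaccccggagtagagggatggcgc
Cyp2e1, chr7:140763569-140763818, plus strand: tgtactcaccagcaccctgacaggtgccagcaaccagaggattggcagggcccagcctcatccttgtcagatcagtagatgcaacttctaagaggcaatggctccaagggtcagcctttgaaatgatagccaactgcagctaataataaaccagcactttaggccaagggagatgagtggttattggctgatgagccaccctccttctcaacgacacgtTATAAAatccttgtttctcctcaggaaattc
Cyp2j5, chr4:96664120-96664369, minus strand: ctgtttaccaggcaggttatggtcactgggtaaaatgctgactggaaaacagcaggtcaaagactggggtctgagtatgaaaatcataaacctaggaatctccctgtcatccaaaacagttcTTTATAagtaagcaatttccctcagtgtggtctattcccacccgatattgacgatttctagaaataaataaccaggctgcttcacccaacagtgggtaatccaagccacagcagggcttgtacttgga

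Motifs were searched on both strands, and each printed sequence held 1 match. A member was counted if any of its windows held the motif, and the 72 members had 81 windows. Shares of members and of windows are thus not of the same unit. AAGGTCA, a nuclear receptor half-site with the extension read by steroidogenic factor 1, begins 222 bases before the start of Cyp2f2. It occurred in 4.08% of 32851 promoter windows of the same length and in 7 of the 72 matched members, of which only Cyp2f2 was detected. GCGTG, the core of the element read by the aryl hydrocarbon receptor, lies on the other strand of the Cyp1b1 promoter, where the printed strand reads CACGC from 76 bases before the start. It occurred in 28.2% of all windows and in 15 of the 72 members. Of the 16 detected members with a matched promoter, 6 held it. TATAAA begins 31 bases before the start of Cyp2e1, and its reverse complement TTTATA begins 128 bases before the start of Cyp2j5. TATAAA occurred in 12.4% of all windows and 27 of the 72 members, which is 37.5%. It occurred in 3 of the 16 detected members with a matched promoter, Cyp26b1, Cyp2d26 and Cyp2e1. GTTAAT, the letters of an HNF1 half-site, occurred in 6.43% of all windows and in 10 of the 72 members, 2 of the 16 detected among them.

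Cyp2f2 (mm10 chr7:27119909-27133660), known from the club cells of the mouse airway, where it activates naphthalene, was the most abundant member. It had 3098 counts and 57.4 TPM in replicate 1, and 3262 counts and 57.98 TPM in replicate 2. Both animals thus stood at nearly the same level, 57.7 ± 0.41 TPM (SD, n = 2), more than any other member in either animal. Among 21888 nuclear genes with a protein-coding transcript it ranked 1145 by mean TPM. Of 4 lung markers, 2 were detected, and the 4 summed to 6.46 TPM and 4.99 TPM. Sftpc, of alveolar type II cells, had 3.23 TPM and 3.42 TPM, and Ager, of alveolar type I cells, had 3.23 TPM and 1.49 TPM. Scgb1a1, which defines club cells, had 0 counts in replicate 1 and 1 count in replicate 2, and Sftpb had 0 counts in both. The part of lung RNA in the level of Cyp2f2 was not tested. Cyp2f2 lies in a cluster of 13 members on chromosome 7, in which only Cyp2s1 was also detected, at 2.76 TPM and 2.33 TPM. Its single leading protein-coding transcript carried 98.8% and 100% of its level.

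Family 1 holds the genes best known as targets of the aryl hydrocarbon receptor. Cyp1b1 (chr17:79701537-79715061), which hydroxylates oestradiol and polycyclic aromatic hydrocarbons, measured 14.18 TPM in replicate 1 and 13.91 TPM in replicate 2. The other two genes were near the floor: Cyp1a1 had 0.01 TPM in both animals, and Cyp1a2, a liver enzyme, had 0.02 TPM and 0.49 TPM. Family 1 in these glands was therefore almost wholly Cyp1b1. The receptor gene Ahr stood at 3.91 TPM and 3.73 TPM, its partner Arnt at 27.32 TPM and 23.59 TPM, and the repressor Ahrr at 0.81 TPM and 0.8 TPM.

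Of the retinoic acid hydroxylases, which break down retinoic acid, only Cyp26b1 (chr6:84571414-84593908) was detected. It stood at 6.67 TPM in replicate 1 against 5.86 TPM in replicate 2, while Cyp26a1 had 0.13 TPM and 0.07 TPM and Cyp26c1 had 0.02 TPM in both. The retinoic acid receptor genes Rara, Rarb and Rarg were all detected, at 17.1 ± 0.67, 7.48 ± 0.21 and 9.56 ± 0.91 TPM (SD, n = 2).

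Sterol, oxysterol and bile acid enzymes were detected for 4 of 6 genes, which were Cyp7b1, Cyp39a1, Cyp46a1 and Cyp27a1. Cyp7b1, the oxysterol hydroxylase of the alternative bile acid pathway, stood at 3.17 TPM and 3.84 TPM. Cyp39a1, which acts on the oxysterol that Cyp46a1 makes, stood at 3.08 TPM and 2.96 TPM, and Cyp46a1, best known as the cholesterol hydroxylase of neurons, at 2.52 TPM and 2.36 TPM. Cyp27a1, the mitochondrial sterol hydroxylase, stood at 2.21 TPM and 2.39 TPM. The 4 genes covered a narrow range and their levels in each animal lay close together. The enzymes of the classical bile acid pathway of liver were low: Cyp7a1, its rate-limiting enzyme, had 5 and 8 counts, and Cyp8b1 had 19 and 36 counts. Nr1h2 and Nr1h3, which encode the oxysterol receptors, measured 43.0 ± 4.43 and 4.19 ± 0.74 TPM, and the bile acid receptor gene Nr1h4 measured 7.63 ± 0.20 TPM (SD, n = 2).

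None of the 3 vitamin D enzymes was detected in both animals. Cyp2r1, which activates vitamin D in the liver, had 39 counts in each animal, at 0.81 TPM and 0.76 TPM. Cyp24a1 (chr2:170482708-170497145), which inactivates vitamin D and is known from the kidney, had 115 counts and 1.08 TPM in replicate 1 but 7 counts and 0.06 TPM in replicate 2. Cyp27b1, the activating hydroxylase of the kidney, had 30 and 11 counts, although its deposited TPM was 0.42 and 0.39. For this gene the scaled counts and the per-length level therefore gave different pictures. The vitamin D receptor gene Vdr had 4.74 TPM and 2.45 TPM. Cyp19a1, the aromatase that makes oestrogens, had 1 count in replicate 1 and none in replicate 2.

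Family 4, whose enzymes hydroxylate fatty acids and eicosanoids, had 7 of 17 genes detected. The Cyp4f genes held most of this level, with 5 of 9 detected and a sum of 43.44 TPM in replicate 1 and 39.69 TPM in replicate 2. Cyp4f13 (chr17:32924688-32947402) was the second most abundant member by whole-gene TPM, at 25.91 TPM and 23.59 TPM. It was followed in this subfamily by Cyp4f16 at 9.84 TPM and 9.62 TPM, Cyp4f17 at 4.53 TPM and 3.36 TPM, Cyp4f14 at 1.11 TPM and 1.47 TPM, and Cyp4f15 at 1.28 TPM and 1.09 TPM. Cyp4b1, whose product also activates the lung toxin ipomeanol, stood at 7.89 TPM and 7.29 TPM, and Cyp4v3 stood at 3.7 TPM and 3.84 TPM. None of the Cyp4a genes, lipid hydroxylases known from liver and kidney, was detected in both animals. Cyp4a10 had 2.64 TPM in replicate 1 against 0.35 TPM in replicate 2, and Cyp4a31 had 2.09 TPM and 0.31 TPM, while Cyp4a14 had 0.95 TPM and 1.14 TPM. The level of these Cyp4a genes thus differed between the animals for a pair of them and not by 2-fold for Cyp4a14. Ppara, which encodes the receptor known to drive Cyp4a genes in liver, stood at 6.13 TPM and 8.54 TPM.

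Family 2, the largest family with 49 genes, had 7 detected. Cyp2d22 (chr15:82370527-82380260), of the subfamily known for drug oxidation, stood at 18.61 TPM and 16.26 TPM, and Cyp2d26 at 4.12 TPM and 4.25 TPM. The other 6 Cyp2d genes were not detected. Cyp2u1, a fatty acid hydroxylase, had 3.1 TPM and 2.81 TPM, and Cyp2j6, of the arachidonic acid epoxygenase subfamily, had 2.72 TPM and 2.27 TPM. Cyp2e1, the ethanol-oxidising enzyme of liver, was detected at unequal levels, 1.47 TPM in replicate 1 and 5.36 TPM in replicate 2. The Cyp2c genes, 15 in number, had no detected gene and summed to 1.6 TPM and 4.31 TPM, led by Cyp2c23 and Cyp2c70. Cyp2a and Cyp2b genes were low as well, with Cyp2a12 at 0.76 TPM and 1.45 TPM and Cyp2b9 at 0.29 TPM and 0.87 TPM. The 7 Cyp3a genes within the symbol rule, of the main drug-oxidising P450 subfamily of liver and gut, had none detected. They summed to 0.82 TPM and 4.11 TPM. Nr1i2 and Nr1i3, which encode the xenobiotic receptors that regulate Cyp3a and Cyp2b genes, were below 1 TPM in both animals.

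Cyp20a1, an orphan P450 with no settled substrate and the only member of its family, stood at 9.17 TPM in replicate 1 against 10.31 TPM in replicate 2. Of the genes listed as P450 redox partners, 9 of 9 were detected and none differed 2-fold. Por had 61.6 ± 2.52, Cyb5a 69.2 ± 1.93, Fdx1 301 ± 4.81 and Fdxr 227 ± 3.28 TPM (SD, n = 2). Cyb5b had 111 ± 6.79, Cyb5r3 72.5 ± 1.06, Pgrmc1 123 ± 4.64, Pgrmc2 16.05 ± 0.54 and Fdx1l 12.9 ± 1.68 TPM (SD, n = 2). Of the 15 receptor genes listed as regulators of P450s, 12 were detected, and 1 differed 2-fold at a mean count of 100: Hnf4a, known from liver and kidney, at 6.75 TPM in replicate 1 against 1.42 TPM in replicate 2. Rxra, the shared partner of many of these receptors, had 20.5 ± 0.45 TPM (SD, n = 2). Cyp51, Ptgis and Tbxas1 encode P450s whose symbols fall outside the rule, and had 8.73 ± 0.98, 8.64 ± 0.93 and 1.69 ± 0.06 TPM (SD, n = 2). Also outside the rule were the protein-coding genes Cyp3a41a, Cyp3a41b, Cyp4a12a, Cyp4a12b and Cyp4a30b, all below 1 TPM in both animals. Cyp3a41a had 0.18 TPM and 0.65 TPM.

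Most P450 genes lie in tandem clusters. Taking members no more than 1000000 bases apart as 1 cluster, 68 genes fell into 9 clusters and 21 stood alone. In clusters 11 genes were detected, which is 16.2%, and among the lone genes 10 were detected, which is 47.6%. The clusters differed among themselves. The Cyp4f cluster on chromosome 17 had 5 of 8 detected, whereas the Cyp2c cluster on chromosome 19 had 0 of 14 and the main Cyp3a cluster on chromosome 5 had 0 of 6. Where P450 genes share sequence, counts may be split between them. In windows of 31 bases along the longest coding transcript, 22 members, Cyp2f2 and Cyp2s1 among them, shared no window with another P450 locus. At the other end 44 members shared more than 10% of their windows, and 23 of these had fractional expected counts. Of the 21 detected genes, 5 were among those 44, Cyp4f16 with 38.9% of its windows shared. Cyp4a10 and Cyp4a31 shared 45.5% and 31.3%.

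**Figure D2:**
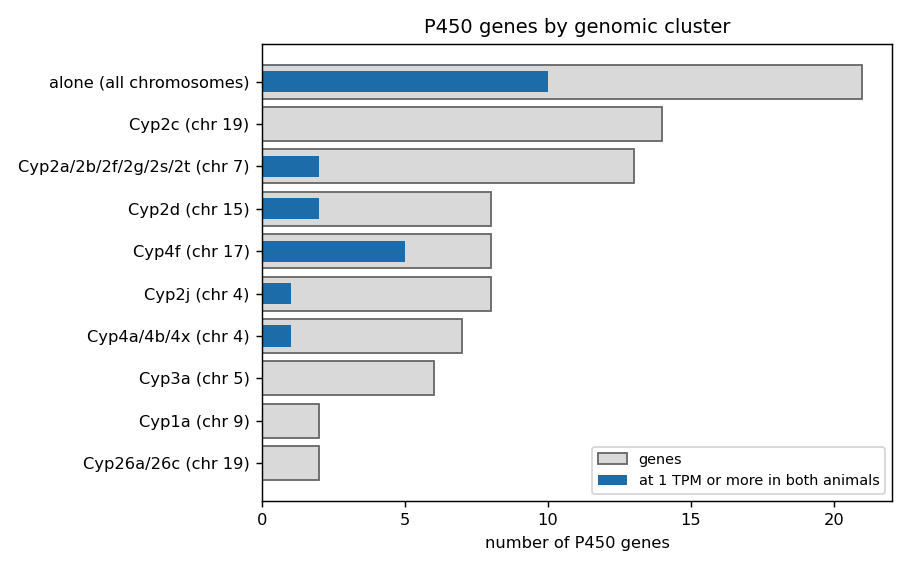
Number of P450 genes in each genomic cluster and of genes standing alone (grey bars), with the number at 1 TPM or more in both animals (blue bars). The Cyp4f cluster has 5 of 8 genes detected, the Cyp2c cluster 0 of 14, and the lone genes 10 of 21.

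The level of a gene was not always carried by transcripts annotated as coding. For Cyp4f13, the leading protein-coding transcript held 34.1% of the gene's level in replicate 1 and 40.0% in replicate 2, and transcripts of non-coding types held 64.9% and 56.2%. For Cyp2d22 the non-coding types held 60.7% and 45.9%. For Cyp1b1, which was below both by whole-gene TPM, the non-coding types held 2.89% and 1.22%. The order of levels given above may thus differ for coding transcripts alone, which was not tested. For Cyp20a1 the share of the leading coding transcript was 63.2% and 41.0% in the main tables and 88.1% and 86.4% in a second deposited quantification, so this share depended on the quantification. For Cyp4f16 the 2 quantifications named different leading coding transcripts. Cyp4b1 was led by a coding transcript with 84.8% and 82.4% of its level, Cyp1b1 by one with 62.9% and 63.7%, and Cyp26b1 by one with 56.4% and 49.1%.

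The animals were then set against each other, by the log2 ratio of replicate 2 over replicate 1 from counts scaled to the library with a prior of 0.5 counts. At a mean count of 100 or more, 17 of 19 members lay within 0.5 log2 units, beside 93.2% of all 13734 such genes. At this depth 1 of the 19 was 2-fold higher in replicate 2 and 1 was 2-fold higher in replicate 1, beside 1.5% and 1.71% of all genes in those directions. The median absolute log2 ratio of the 19 was 0.15, beside 0.11 over all genes. All 8 members that reached 5 TPM in both animals had log2 ratios between -0.15 and 0.07. Asking for this level in both animals favours genes with small ratios. Cyp2e1 passed it only in replicate 2, with 5.36 TPM and a log2 ratio of 1.93, and is not among the 8. Likeness between the animals is therefore read from the mean count rule. By that rule 17 of 19 members were alike, as most genes of their depth were.

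Cyp2e1 (chr7:140763739-140774987) was the gene called toward replicate 2, with 74.81 counts in replicate 1 and 287.7 in replicate 2. Its log2 ratio was 1.93, with a 95% exact (Clopper-Pearson) counting interval of 1.57 to 2.32, which covers counting error only. Cyp2j5 (chr4:96628773-96664154), an epoxygenase known from the kidney, was the gene called toward replicate 1, with 241 counts against 34. Its log2 ratio was -2.81, with a counting interval of -3.39 to -2.31. Each of these values rests on 1 library per side, so no spread between animals stands behind it.

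**Figure D3:**
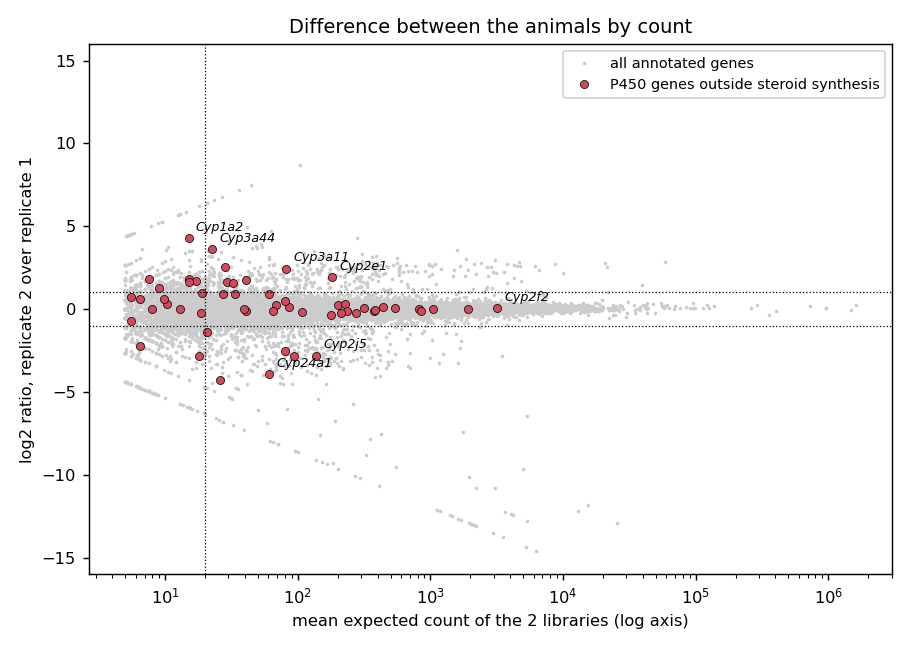
Log2 ratio of replicate 2 over replicate 1 against the mean expected count (log axis) for every annotated gene with a mean count of 5 or more (grey) and for the P450 genes (red), with dotted lines at 2-fold and at a mean count of 20. The P450 genes with high counts lie near 0, and those furthest from 0, such as Cyp3a44 at 3.61 and Cyp24a1 at -3.95, have low counts.

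At the lower threshold of a mean count of 20, which 39 members passed, more genes differed 2-fold. There 7 were higher in replicate 2, beside 2.37% of all 17512 genes, and 6 were higher in replicate 1, beside 3.3%. The 39 members had a median absolute log2 ratio of 0.27, beside 0.13 over all genes, and a median of 0.03, beside 0.01. The other 26 had log2 ratios from -0.35 to 0.92, and of the 13 genes that differed only Cyp2e1 was detected in both animals.

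Those higher in replicate 2 were Cyp2e1, Cyp3a11, Cyp3a16, Cyp3a44, Cyp2c23, Cyp2d10 and Cyp2b9. Cyp3a11 (chr5:145854426-145879964), a major drug-oxidising P450 of mouse liver, had 25 counts in replicate 1 and 137.91 in replicate 2, a log2 ratio of 2.44 with a counting interval of 1.84 to 3.14. Cyp3a16, known as a fetal liver form, had 8 and 48.62 counts, and Cyp3a44 had 3 and 42.45 counts, where the ratio of 3.61 had a counting interval of 2.16 to 6.14. Cyp2c23 had 18 and 63 counts, Cyp2b9 had 16 and 49, and Cyp2d10 had 13.85 and 44.43. The counting intervals of all 7 lay above 0, but they do not cover the splitting of counts between similar genes. Cyp2d10, Cyp3a44, Cyp3a11, Cyp3a16 and Cyp2b9 shared 52.7%, 48.4%, 33.8%, 27.3% and 23.6% of their windows with other P450 loci. Cyp2e1 shared 1.89% and Cyp2c23 none. All 10 liver markers were higher in replicate 2 too, with log2 ratios from 1.19 to 2.35, Alb at 60.34 TPM and 268.65 TPM among them and none at 0 in either animal. The 5 skeletal muscle markers were also higher in replicate 2, with log2 ratios from 1.02 to 2.83, and the 7 macrophage markers had log2 ratios from 0.24 to 0.70. The part of liver, muscle or macrophage RNA in these 7 differences was not tested.

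Those higher in replicate 1 were Cyp2j5, Cyp4a10, Cyp4a31, Cyp24a1, Cyp2d12 and Cyp27b1. Cyp4a10 had 163.64 counts in replicate 1 and 22.39 in replicate 2, and Cyp4a31 had 137.64 and 23.72, with log2 ratios of -2.85 and -2.52. Cyp27b1 had a log2 ratio of -1.41 from the counts but -0.10 from the deposited TPM, and in the second quantification its TPM was 0.65 in replicate 1 and 0.98 in replicate 2. Its place among the 6 thus holds for the counts and not for the per-length level. The authors' tables give the Cyp4a10 counts a posterior SD of 2.37 and 1.41, which applies within that quantification only. The effect of sequence shared between P450 loci on the Cyp4a10 and Cyp4a31 counts was not tested. Cyp24a1 had a log2 ratio of -3.95 with a counting interval of -5.39 to -2.95. Cyp2d12 had 50 and 2.11 counts, a log2 ratio of -4.28 with the widest counting interval of the 6, -7.73 to -2.72. Cyp2d12 shared 32.3% of its windows with other P450 loci. All 10 kidney markers were lower in replicate 2, with log2 ratios from -6.05 to -2.32, Slc34a1 at 47 TPM and 4.97 TPM among them and none at 0 in either animal. The pancreas markers given above were also higher in replicate 1. The part of kidney or pancreas RNA in these 6 differences was not tested.

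**Figure D4:**
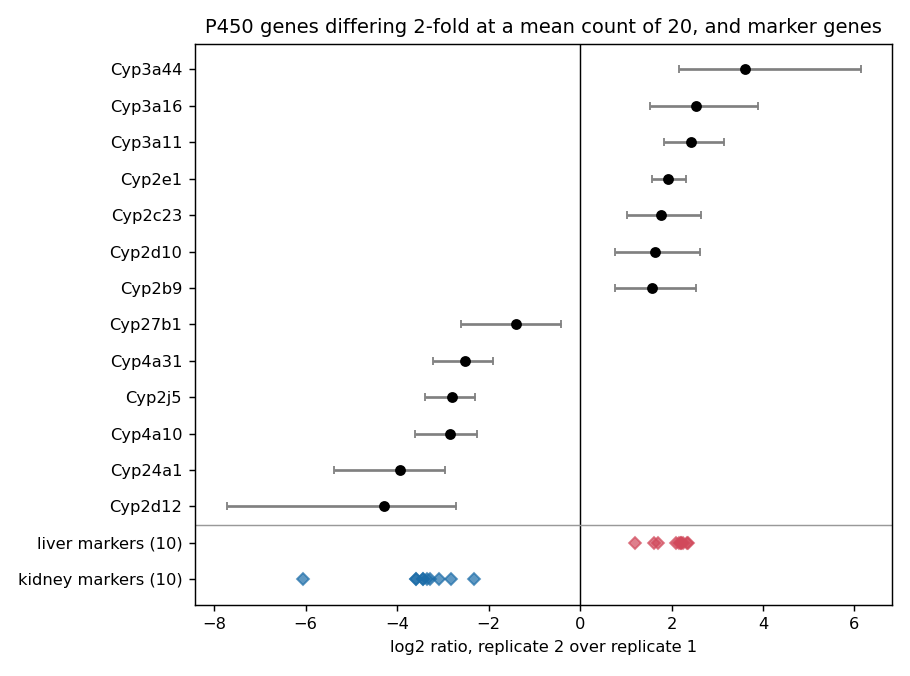
Log2 ratio of replicate 2 over replicate 1 for the 13 P450 genes that differed 2-fold at a mean count of 20 (points with 95% counting intervals) and for 10 liver and 10 kidney marker genes (diamonds). The P450 genes are split by the sign of their own ratio, 7 to the right and 6 to the left. The side each shares with a marker list follows from that split. The liver markers run from 1.19 to 2.35 and the kidney markers from -6.05 to -2.32. Some P450 genes lie beyond these ranges, such as Cyp3a44 at 3.61 and Cyp27b1 at -1.41. Skeletal muscle markers, also higher in replicate 2, and pancreas markers, also higher in replicate 1, are not drawn.

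A larger fold was asked of genes with at least 20 counts in 1 animal, of which there were 46. At 4-fold, 4 were higher in replicate 2, beside 1.2% of 18003 genes, and 6 were higher in replicate 1, beside 1.92%. This added 2 genes to those already named. Cyp1a2, the liver enzyme of family 1, had 1 count in replicate 1 and 29 in replicate 2, a log2 ratio of 4.29 with a counting interval of 2.26 to 10.2. Cyp2j11 had 32 counts in replicate 1 and 4 in replicate 2, a log2 ratio of -2.86. By subfamily, the summed counts of the Cyp3a genes were 49 and 257.98, and those of the Cyp2c genes were 79 and 225. In the other direction, the Cyp4a genes had 371 and 133 counts, and the Cyp2j genes had 650 and 364. The Cyp4f genes, by contrast, had 1550 and 1497 counts, and the Cyp2d genes 1320 and 1319.99. Cyp4f13 and Cyp2d22 gave most of the counts in these near-equal sums. Within Cyp2d, Cyp2d12 and Cyp2d10 differed in opposite directions, as given above.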

How the data were processed

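Total RNA-seq of 2 adrenal glands (1 group) was analysed. Libraries were made from 300 ng of RNA with ERCC spike-ins, per the labels. The deposited gene tables list TPM, expected counts and their posterior means and SDs for 81881 sequences, under RSEM column names per the file headers. A second deposited transcript table gives estimated counts and TPM for 141864 sequences under kallisto column names, and was summed to genes. The build mm10 and annotation M21 are named in the authors' notes. Aligner and quantifier: not given in the sources used here. Library totals were 31838341 and 32931868 counts, of which identifiers that are bare numbers, left out, held 4.61e-05% and 6.07e-06%. All 55536 annotated genes matched GENCODE M21.

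Log2 ratios used expected counts, not rounded, scaled by TMM (edgeR 4.0.16, factors 1.02 and 0.985). DESeq2 1.42.0 size factors, from genes averaging 20 counts or more, were an alternative. A 2-fold ratio at a mean count of 100 was a rule of size, not a test. Floors are 3 counts, and intervals are 95% exact (Clopper-Pearson). With no molecular identifiers reads are not independent, so both cover counting error only. Steps were checked on simulated data. The members, gene lists and thresholds were chosen with earlier results of these data known, and the cluster distance and shared-sequence windows after the files were seen. Members named are those at 1 TPM, the 2 highest of each role or subfamily at 0.1 TPM, those 2-fold apart at a mean count of 100, those 4-fold apart with 20 counts in 1 animal, and some at 0 in both animals. Cyp2d10, Cyp27b1, Cyp1a1, Cyp26c1, Cyp19a1, Cyp7a1, Cyp8b1 and Cyp4a14 fell outside this rule and were named after their values were seen. The planned comparison of protein sequences was not run. Python 3.11.15, pandas 2.3.3, scipy 1.17.1 and R 4.3.3 were used.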

Additional observations from a re-analysis of the deposited data

How the results depend on the processing

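The members' summed level, 204 TPM as the mean of both animals, was 203 to 206 TPM with either animal alone, 212 TPM from the posterior mean, 361 TPM in the second quantification and 561 TPM when TPM was rescaled over nuclear protein-coding genes; the cause of these shifts was not tested, apart from the smaller denominator of the last. The number of detected genes, 21, became 46 at 0.1 TPM, 8 at 5 TPM and 38 at 10 counts in both animals. All 21 were among the 25 detected in the second quantification, and the 8 highest genes were the same. The median log2 ratio of 0.03 was 0.022 with DESeq2 size factors, -0.012 with total counts, -0.048 with spike-in counts, -0.033 with deposited TPM, 0.0086 in the second quantification, -0.025 at a mean count of 100 and 0.10 with no filter. Over all genes it moved between -0.07 and 0.02. The 1 gene higher in replicate 2 became 7 at a mean count of 20, 24 with no filter and 0 at 4-fold; the 1 gene higher in replicate 1 became 6 and 14 under the first and second of these. The unfiltered rule called 10.2% and 14.3% of all genes. All 15 members past a fold rule at a mean count of 20, or at 4-fold, had the same direction under every scaling of the counts, but Cyp27b1 lost its 2-fold difference with deposited TPM (-0.10). No paired analysis was possible because there is a single group.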

Other observations

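Among 30 pseudogenes of P450 type, 1 was at 1 TPM or more in both animals and 24 were at 0 in both. The exception was Cyp21a2-ps, with 80.92 TPM in replicate 1 against 78.52 TPM in replicate 2, more than Cyp2f2. It is the pseudogene copy of the steroid gene Cyp21a1. How far its counts hold reads of that gene was not tested. The authors' posterior SD was 17.19 on 3198.98 counts in replicate 1 and 18.1 on 3209.86 in replicate 2. Cyp21a1 had the same posterior SDs, on 80495 counts in replicate 1 and 89679.1 in replicate 2. Cyp4x1, which overlaps the antisense gene Cyp4x1os, had 13 expected counts in each animal but 67.1 and 47.1 estimated counts in the second quantification. No reason for this difference was tested.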
